A study of Mus musculus with 8 samples.

Results

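The 9 genes described here encode class I phosphoinositide 3-kinase (PI3K) subunits, a lipid phosphatase and Akt kinases: Pik3ca, Pik3cb, Pik3cd, Pik3cg, Pik3r1, Pik3r5, Inpp5d, Akt1 and Akt2. They were taken by name from the 13305 genes of the deposited count table, with symbols of GENCODE M21 (GRCm38) for its Ensembl identifiers, and all 9 were found and tested. Inpp5d is the only phosphatase among them. No expression value was used to choose them, but results of these data were known when they were proposed. None of the 9 differed between Gab2 genotypes at an adjusted p under 0.05, and of all genes 2.09% did between AML KO and AML WT. Akt2 came nearest, with 147.7 ± 6.08 CPM (counts scaled to library size; SD, n = 3) in AML KO and 122.4 ± 6.85 (SD, n = 3) in AML WT bone marrow (BM).

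Class I PI3K phosphorylates the membrane lipid PIP2 to PIP3, which recruits Akt to the membrane, where it is activated by phosphorylation. Catalytic subunits are held by regulatory subunits that link them to tyrosine kinase receptors and their adaptors or to G protein-coupled receptors, and lipid phosphatases such as SHIP1 remove phosphates from PIP3. Gab2 is a docking protein that binds the regulatory subunit p85 once phosphorylated, and Flt3-ITD is a constitutively active receptor tyrosine kinase that feeds this pathway in AML. PI3K and Akt activity is set largely by protein phosphorylation and lipid levels, neither of which RNA-seq measures.

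Whole BM RNA of 8 C57BL/6N mice was sequenced, 1 library per mouse: 3 AML WT (Gab2+/+), 2 AML HET (Gab2+/-) and 3 AML KO (Gab2-/-) mice. All 8 carried Mx1-Cre, Dnmt3a+/- and Flt3ITD/ITD, so no group was free of the AML genotype. In the methods of the study, the Gab2 KO allele is constitutive, with a neomycin cassette in place of several exons, and Mx1-Cre, whose promoter responds to interferon, recombined Dnmt3a without induction. The labels used here give no age. Library totals were 28009258 to 39266815 counts.

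Gab2 (ENSMUSG00000004508, chr7:97081586-97308946, plus strand) checks the labels. Its level stood at 93.9, 68.5 and 61.6 CPM for AML WT mice, at 55.8 and 50.8 for AML HET mice and at 35.0, 47.2 and 40.2 for AML KO mice. The groups were ordered by allele number without overlap, and the AML KO libraries still held Gab2 reads. The fold change from AML WT to AML KO was 0.546 (log2 −0.87, standard error 0.18), with an adjusted p of 0.0420 from edgeR's quasi-likelihood test. With 1 mouse left out at a time, this adjusted p ran from 0.0302 to 0.159 and stayed under 0.05 in 2 of 8 fits, those without AML WT mouse 3 or AML KO mouse 2.

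Cell type markers of whole BM also differed between the groups. Called higher in AML KO than in AML WT BM were 11 of 13 measured erythroid, 11 of 12 megakaryocyte and platelet, 7 of 12 neutrophil and 3 of 10 stem and progenitor cell markers. Of the 12 monocyte and macrophage markers 1 was called lower, and of 9 B cell and 12 T and NK cell markers 0 were called. Of all 13305 genes, 1.77% were called higher and 0.323% lower. Summed neutrophil marker levels were 1363 to 4794 CPM for AML WT, 5505 to 6196 for AML HET and 10630 to 17330 for AML KO mice, and summed erythroid levels 319.7 to 451.2, 694.8 to 2213 and 1540 to 5423 CPM. Monocyte and macrophage sums were 5057 to 5757, 4797 to 5093 and 3811 to 5024 CPM, megakaryocyte and platelet sums 95.6 to 133.7, 134.1 to 176.5 and 348.3 to 462.7 CPM. No marker was at 0 in any mouse. In such bulk BM, fewer cells of a type and less RNA per cell cannot be told apart.

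The promoters of 2 members are shown, Akt2 because it had the smallest p of the 9 and Pik3cg because it varied most between mice. Each is 300 bases, 250 before to 50 after an annotated start, from RefSeq on GRCm38.p6. The Akt2 window, the most upstream of its 4, is chr7:27591302-27591601 (plus strand), with the Stat5 consensus TTCNNNGAA in capitals. The Pik3cg window is chr12:32208610-32208909 (minus strand). Its capitals mark GAGGAA, the Ets core with flanking bases, on either strand.
Akt2: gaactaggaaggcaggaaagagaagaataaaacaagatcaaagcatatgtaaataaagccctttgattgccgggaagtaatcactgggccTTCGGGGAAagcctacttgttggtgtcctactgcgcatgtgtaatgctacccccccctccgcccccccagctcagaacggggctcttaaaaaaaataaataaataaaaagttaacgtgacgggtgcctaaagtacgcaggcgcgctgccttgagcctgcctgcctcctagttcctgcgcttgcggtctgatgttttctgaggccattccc
Pik3cg: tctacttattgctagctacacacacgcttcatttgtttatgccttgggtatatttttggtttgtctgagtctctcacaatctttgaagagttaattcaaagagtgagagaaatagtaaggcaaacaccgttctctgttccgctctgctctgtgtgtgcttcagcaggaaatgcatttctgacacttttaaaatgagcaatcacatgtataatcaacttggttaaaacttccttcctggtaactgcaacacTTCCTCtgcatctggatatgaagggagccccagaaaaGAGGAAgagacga
The letters TTCNNNGAA were found in 1 of the 17 windows of the 9 members, this Akt2 window, and in 8.3% of 32851 mouse promoters. GAGGAA was found in 5 of the 17 windows, those of Pik3cg, Inpp5d and Akt2, and in 28.3% of all promoters. GC boxes (GGGCGG) were found in 8 windows of 7 members, against 35.7% of all promoters, the Foxo core GTAAACA in 2 windows, of Pik3cg and Akt1, against 3.65%, and TATAAA in 1 window, of Pik3r1, against 13.6%. Both strands were searched. The 2 Pik3cg windows overlap. The Pik3cg window shown had a GC content of 40.7% and 4 CG dinucleotides, and the median promoter 52.7% and 7. The 1 Pik3cb window had 79.0% and 44, the most CG dinucleotides of the 17 windows. These matches describe letters, and no binding was measured.

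Levels of different genes were compared per length, as CPM per kilobase of merged exons. Akt1 (74.9 ± 6.66, SD over 8 mice) and Pik3cd (68.4 ± 2.62) were highest, followed by Inpp5d (34.7 ± 2.09). Akt2 (18.9 ± 1.82), Pik3r5 (17.7 ± 1.35) and Pik3cg (16.4 ± 4.02) formed a middle group. Pik3r1 (10.5 ± 1.33), Pik3ca (8.14 ± 0.785) and Pik3cb (4.24 ± 0.604) were lowest. Among the PI3K subunits, Pik3cd, Pik3r5 and Pik3cg, known as preferential to leukocytes, stood above the widely expressed Pik3r1, Pik3ca and Pik3cb, while Akt1, also widely expressed, was the highest of the 9.

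Of the 8 neighbours in this order, 5 were ordered the same way in 8 of 8 mice, which gave an exact permutation p of 0.0078125 each (two-sided sign flips, the smallest p for 8 mice; 0.0125 adjusted over the 8 pairs). With merged exons as the length, the other 3 did not differ beyond their spread: Akt1 and Pik3cd (adjusted exact p = 0.115), Akt2 and Pik3r5 (0.179), and Pik3r5 and Pik3cg (0.375). In each of these 3 pairs, 6 of 8 mice had the first gene higher. The order was taken from the same 8 mice that were tested. A gene's length is the same in every mouse, so these p-values take in the spread between mice and no error in the length. With the longest transcript as the length, Pik3cg moved to rank 5 and Pik3r5 to rank 6. Of the 8 pairs in the order above, 7 then had an adjusted exact p under 0.05, all but Pik3r5 and Pik3cg.

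Among the catalytic subunits, Pik3cd (chr4:149649168-149702571, minus strand) encodes p110δ, the isoform enriched in leukocytes. It stood at 419.3, 424.9 and 446.3 CPM for AML WT mice, at 428.8 and 450.4 for AML HET mice and at 429.0, 428.8 and 397.1 for AML KO mice. The groups overlapped throughout, and the coefficient of variation was 3.31% to 4.39% within groups. The log2 fold change from AML WT to AML KO was −0.04 (95% interval −0.28 to 0.20), with an adjusted p of 0.851.

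Pik3cg (chr12:32173473-32208659, minus strand) encodes p110γ, which is activated by G protein-coupled receptors. Its level stood at 215.4, 128.6 and 125.3 CPM for AML WT mice, at 129.4 and 125.0 for AML HET mice and at 111.7, 155.4 and 114.6 for AML KO mice. AML WT mouse 1 was far above the other 7 mice. The log2 fold change from AML WT to AML KO was −0.30 (95% interval −0.79 to 0.19, adjusted p = 0.460), the widest interval of the 9 genes. Without AML WT mouse 1 it was −0.01.

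Pik3ca (chr3:32397671-32468486, plus strand) and Pik3cb (chr9:99036654-99140621, minus strand) encode the widely expressed p110α and p110β. Pik3ca stood at 85.6, 72.5 and 68.9 CPM for AML WT mice, at 81.3 and 72.9 for AML HET mice and at 62.2, 74.3 and 74.3 for AML KO mice. AML KO mouse 1 was the lowest of the 8 and the groups overlapped, with a log2 fold change of −0.11 from AML WT to AML KO (95% interval −0.40 to 0.19, adjusted p = 0.665). Pik3cb stood at 35.1, 31.0 and 25.9 CPM for AML WT mice, at 27.6 and 25.6 for AML HET mice and at 28.5, 37.3 and 33.2 for AML KO mice. All AML KO mice lay above both AML HET mice, and AML KO overlapped AML WT, with AML KO mouse 2 the highest of the 8. Its log2 fold change was 0.10 (95% interval −0.24 to 0.45) to AML WT and 0.31 (−0.08 to 0.70, adjusted p = 0.856) to AML HET.

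**Figure D1:**
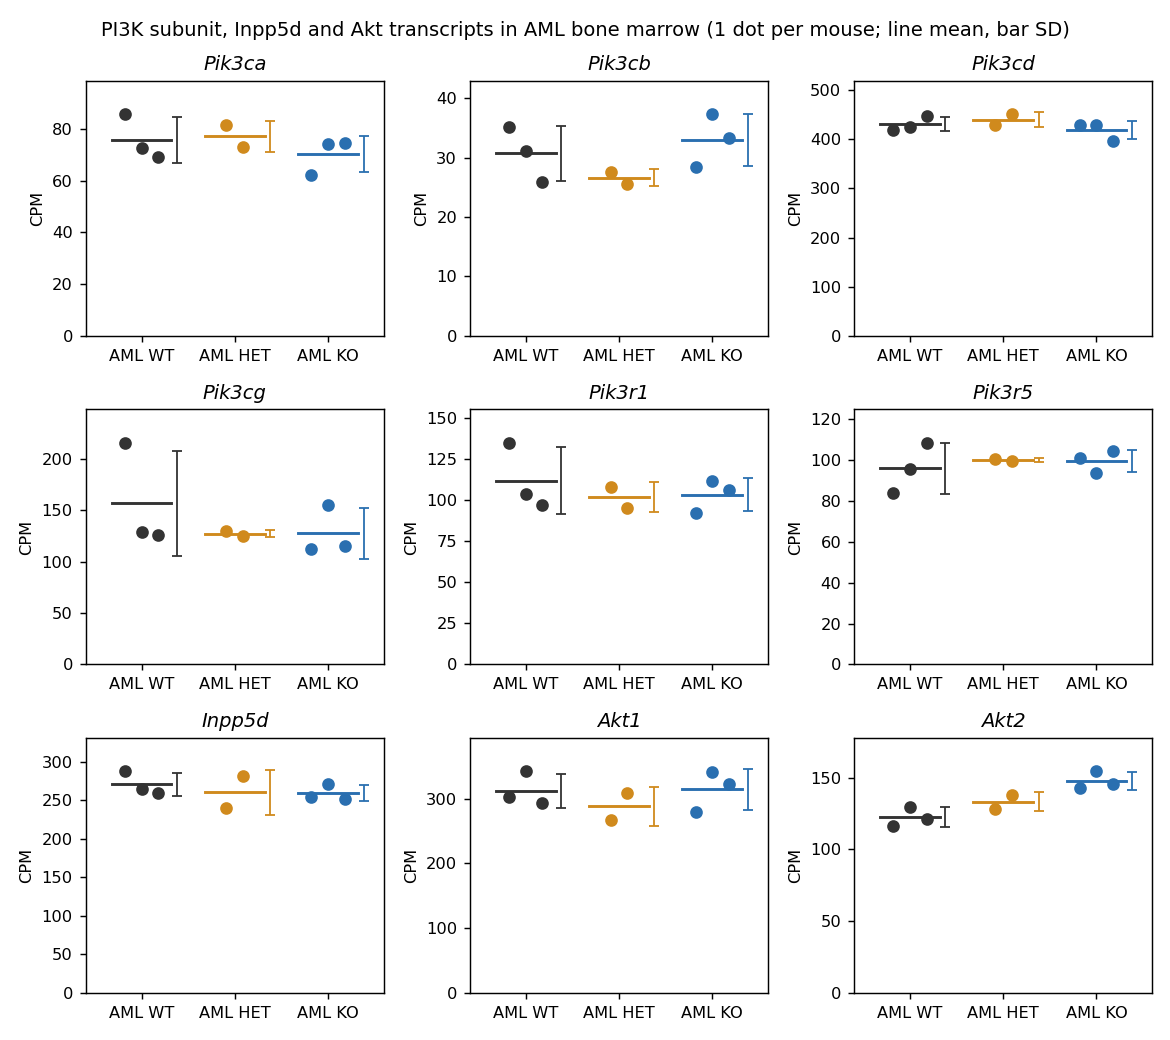
CPM of the 9 genes, 1 dot per mouse, with the mean as a line and the SD as a bar for AML WT (n = 3), AML HET (n = 2) and AML KO (n = 3), each axis starting at 0. The 3 genotypes overlap for every gene except Akt2, whose 3 AML KO mice (143.0 to 154.5 CPM) lie above all others, and Pik3cb, where AML KO lies above AML HET alone.

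As shares of their summed CPM per kilobase, Pik3cd made up 69.0% ± 5.57 (SD, n = 3) of the 4 catalytic transcripts of AML WT BM and 71.0% ± 2.88 (SD, n = 3) of those of AML KO BM. The 2 AML HET mice were at 70.9% and 73.1%. Pik3cg followed with 18.4% ± 4.80 for AML WT, 15.5% ± 0.569 for AML HET and 15.9% ± 2.15 for AML KO. In the same order of groups, the mean share of Pik3ca was 8.32%, 8.71% and 8.22%, and that of Pik3cb 4.26%, 3.79% and 4.86%. The order Pik3cd, Pik3cg, Pik3ca, Pik3cb was the same in all 8 mice. The mouse that departed most was AML WT mouse 1, with 62.7% Pik3cd and 23.9% Pik3cg.

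**Figure D2:**
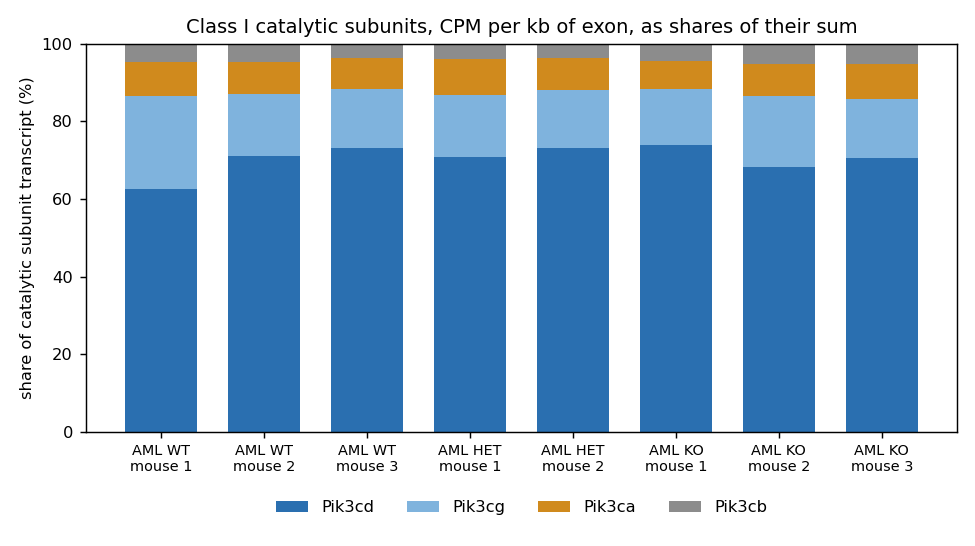
Share of each class I catalytic transcript (Pik3cd, Pik3cg, Pik3ca, Pik3cb) in their summed CPM per kilobase of exon, in percent, 1 bar per mouse. Pik3cd takes 62.7% to 74.0% in every mouse, and AML WT mouse 1 has the largest Pik3cg share, 23.9%.

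Of the regulatory subunits, Pik3r1 (chr13:101680563-101768217, minus strand) encodes p85α and its shorter forms, which hold p110α, p110β and p110δ. It stood at 134.8, 103.5 and 97.1 CPM for AML WT mice, at 108.0 and 95.1 for AML HET mice and at 92.4, 111.4 and 106.0 for AML KO mice, with AML WT mouse 1 again the highest. The log2 fold change from AML WT to AML KO was −0.12 (95% interval −0.45 to 0.22, adjusted p = 0.682), and 0.03 without that mouse. Pik3r5 (chr11:68432121-68497849, plus strand) encodes p101, a partner of p110γ. It stood at 83.9, 95.6 and 108.5 CPM for AML WT mice, at 100.7 and 99.4 for AML HET mice and at 101, 93.8 and 104.3 for AML KO mice. Here AML WT mouse 1 was the lowest, and the log2 fold change was 0.05 (95% interval −0.22 to 0.33, adjusted p = 0.824).

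Inpp5d (chr1:87620312-87720507, plus strand) encodes SHIP1, the hematopoietic phosphatase that removes the 5-phosphate of PIP3. It stood at 287.7, 264.8 and 259.3 CPM for AML WT mice, at 239.4 and 280.9 for AML HET mice and at 254.7, 271.4 and 251.5 for AML KO mice. The groups overlapped, with the 2 AML HET mice as the lowest and the second highest of the 8. The log2 fold change from AML WT to AML KO was −0.06 (95% interval −0.31 to 0.19), with an adjusted p of 0.776.

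Akt1 (chr12:112653821-112674884, minus strand), the widely expressed Akt isoform, stood at 302.5, 342.4 and 292.7 CPM for AML WT mice, at 267.2 and 309.0 for AML HET mice and at 279.3, 341.1 and 322.1 for AML KO mice. Means of AML WT (312.5 CPM) and AML KO (314.2 CPM) nearly coincided, with a log2 fold change of 0.01 (95% interval −0.28 to 0.29, adjusted p = 0.978).

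Akt2 (ENSMUSG00000004056, chr7:27591552-27640826, plus strand), the isoform known for its part in insulin signaling, stood at 116.1, 129.7 and 121.5 CPM for AML WT mice, at 128.5 and 137.8 for AML HET mice and at 143.0, 154.5 and 145.4 for AML KO mice. All AML KO mice lay above all others, and the AML HET mice overlapped AML WT. AML KO was 1.21-fold above AML WT (95% interval 1.02 to 1.42, log2 0.27, standard error 0.11). The edgeR quasi-likelihood p was 0.0304 before and 0.249 after adjustment over all genes. An exact permutation test gave p = 0.1, the smallest that 3 mice against 3 allow. AML HET was 0.12 above AML WT on the log2 scale (95% interval −0.15 to 0.39). Per Gab2 allele lost, the log2 level of Akt2 was 0.14 higher (95% interval 0.03 to 0.24), with an edgeR p of 0.0182 and 0.184 after adjustment. Leaving out each mouse in turn kept its log2 fold change between 0.22 and 0.31, with adjusted p from 0.246 to 0.526.

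Akt2 and Gab2 both lie on chromosome 7, 69.44 Mb apart. The genes whose log2 CPM followed Akt2 most closely over the 8 mice were Fcnb (Pearson r = 0.969), Nxn (0.967) and 2210408F21Rik (0.964), and those that ran most opposite were Vipr1 (−0.982), Ccr9 (−0.982) and Picalm (−0.964). These are descriptions over 8 libraries, picked as the extremes of all genes. Picalm also lies on chromosome 7, and the part of this position in its values was not tested. Fcnb encodes a ficolin of myeloid cells, and its mean was 41.1 CPM for AML WT, 64.7 for AML HET and 111.5 for AML KO. Summed neutrophil, erythroid, megakaryocyte and platelet, and stem and progenitor cell markers also rose from AML WT to AML KO, with AML HET between or overlapping. The part of any of these cell types in the Akt2 values was not tested.

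**Figure D3:**
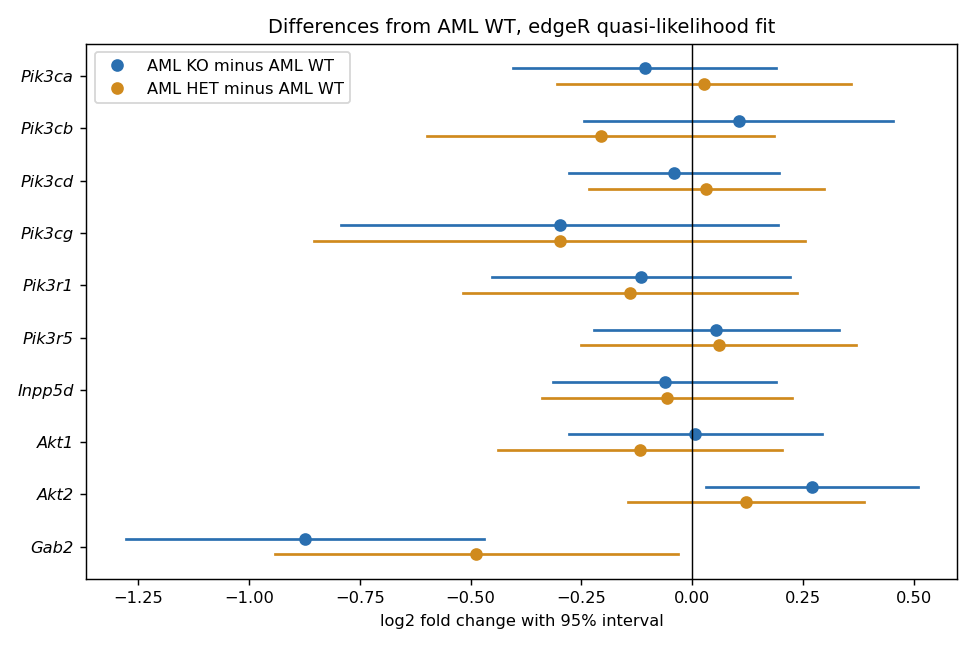
Log2 fold changes of the 9 genes and Gab2 with their 95% intervals, AML KO minus AML WT and AML HET minus AML WT. The AML KO interval of Akt2 (0.03 to 0.51) and both intervals of Gab2 leave out 0, and all others include it.

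Counted together, 0 of the 9 genes passed an adjusted p of 0.05 in edgeR's test of AML KO against AML WT, where 278 of 13305 genes (2.09%) did. In AML HET against AML WT 0 passed (3 genes or 0.0225% of all), in AML KO against AML HET 0 (0 genes of all), and in the trend over Gab2 alleles 0 (351 genes or 2.64%). At an unadjusted p under 0.05, 1 of 9 (Akt2) passed in AML KO against AML WT, against 17.7% of all genes, and 1 of 9 in the trend, against 20.2%. In AML HET against AML WT and AML KO against AML HET 0 of 9 did, against 2.47% and 5.86%. DESeq2 and limma-voom also called 0 of the 9 in every comparison. AML KO and AML WT mice did not overlap for 1 of the 9, against 22.1% of all genes, AML KO and AML HET mice for 2 (Pik3cb and Akt2), against 24.2%, and AML HET and AML WT mice for 0, against 18.1%. These shares are near or below the background.

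The median absolute log2 fold change from AML WT to AML KO was 0.10 over the 9 genes and 0.23 over all genes. The median half-width of the 95% interval was 0.29 over the 9 and 0.42 over all genes. The 9 intervals reached from −0.79 (Pik3cg) to 0.51 (Akt2). These intervals are not adjusted over all genes. That of Akt2 (0.03 to 0.51) left out 0, yet its edgeR adjusted p was 0.249. A call therefore needed a larger difference than the half-width, and smaller differences could not be called in these data. AML HET against AML WT gave log2 fold changes from −0.30 (Pik3cg) to 0.12 (Akt2), and AML KO against AML HET from −0.13 (Pik3ca) to 0.31 (Pik3cb). The lowest adjusted p was 0.990 and 0.856 in these comparisons.

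The libraries also differed in how levels followed transcript length. The deviation of genes from their mean over mice followed transcript length with Spearman's rho = 0.508 in AML WT mouse 1 and −0.464 in AML KO mouse 1, and with −0.161 to 0.129 in the other 6 (across 13266 genes, which are not independent). AML WT mouse 1 was above the mean of the other AML WT mice by 0.76 in Pik3cg, 0.43 in Pik3r1, 0.30 in Pik3cb and 0.28 in Pik3ca on the log2 scale, and differed by −0.28 in Pik3r5. For Pik3cg, this was above 95.3% of all genes. With an offset for length, chosen after seeing the data, the log2 fold change from AML WT to AML KO became 0.15 for Pik3ca, 0.30 for Pik3cb, −0.11 for Pik3cg, 0.11 for Pik3r1 and 0.36 for Akt2 (adjusted p = 0.126), and again 0 of the 9 passed.

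Ratios of counts within a mouse need no library size, and 6 were fixed between partners or isoforms. Akt1 to Akt2 stood at 2.61, 2.64 and 2.41 for AML WT mice, at 2.08 and 2.24 for AML HET mice and at 1.95, 2.21 and 2.21 for AML KO mice. All AML WT mice lay above all AML HET and AML KO mice. The difference between AML KO and AML WT was −0.27 on the log2 scale, with an exact two-sided permutation p of 0.1, the smallest possible, and 0.6 adjusted over the 6 ratios. The other 5 ratios overlapped between AML KO and AML WT. Pik3r5 to Pik3cg, the transcripts of p101 and p110γ, differed by 0.33 (exact p = 0.5) and by −0.02 without AML WT mouse 1. Pik3cg to Pik3cd differed by −0.23 (exact p = 0.6) and by 0.05 without that mouse. Pik3cd to Pik3cb differed by −0.15 (exact p = 0.5), Inpp5d to Pik3cd by −0.02 and Pik3r1 to Pik3ca by 0.00, both with an exact p of 1.

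**Figure D4:**
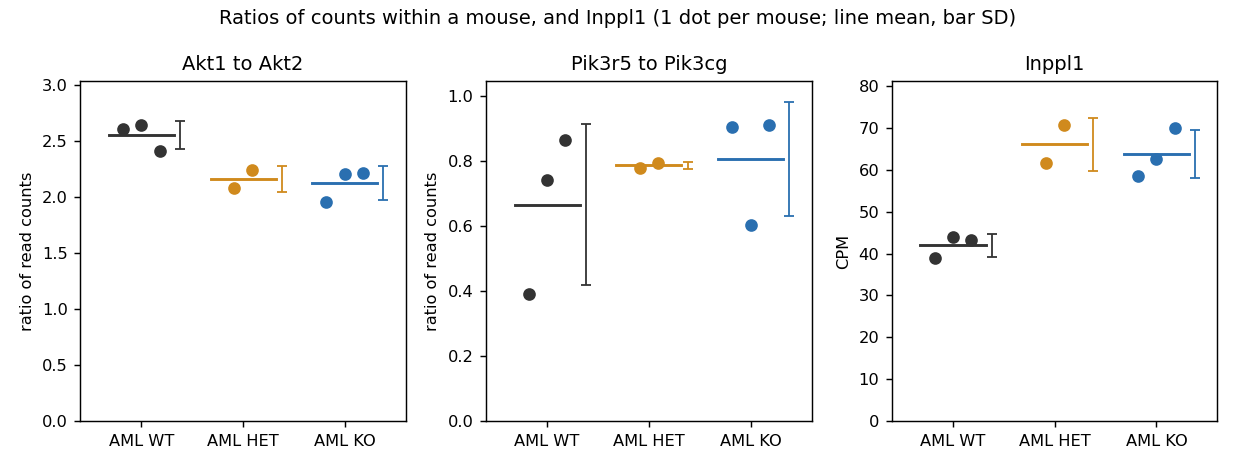
Count ratios of Akt1 to Akt2 and of Pik3r5 to Pik3cg within each mouse, and the CPM of Inppl1, 1 dot per mouse with the mean as a line and the SD as a bar. The Akt1 to Akt2 ratio is 2.41 to 2.64 in AML WT and at most 2.24 in the other mice, and Inppl1 is 38.9 to 43.9 CPM in AML WT and 58.6 to 70.6 in the others.

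The other genes of the pathway were followed in 10 lists with 72 measured genes. In AML KO against AML WT, 1 of 72 was called higher (against 1.77% of all genes) and 0 lower (against 0.323%). At an unadjusted p under 0.05, 4 were higher and 5 lower, against 9.77% and 7.88%. AML KO values did not overlap AML WT for 9 higher and 4 lower genes, against 12.3% and 9.83%. The median log2 fold change was −0.13 over the 72 genes and −0.02 over all genes. Of the 72 genes 22 were above and 50 below 0, and of all 13305 genes 6401 were above and 6904 below. The part of the length trend of the libraries in this shift was not tested.

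Inppl1 (chr7:101822632-101838229, minus strand), the gene called, encodes SHIP2, the widely expressed relative of SHIP1. It stood at 38.9, 43.9 and 43.3 CPM for AML WT mice, at 61.7 and 70.6 for AML HET mice and at 58.6, 62.6 and 69.9 for AML KO mice. Both groups with a Gab2 KO allele lay above AML WT without overlap. The log2 fold change was 0.60 in AML KO (standard error 0.12, adjusted p = 0.0427) and 0.65 in AML HET BM (standard error 0.14, adjusted p = 0.505, but 0.00924 with DESeq2). The call did not hold with any 1 of the 8 mice left out (adjusted p from 0.0647 to 0.170). Inppl1 lies 4.514 Mb from Gab2, and the part of this nearness in its difference was not tested. Inpp5d, its relative among the 9, had nearly the same mean in AML HET (260.2 CPM) and AML KO (259.2 CPM).

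Among the other 10 phosphoinositide phosphatases, 0 were called. Synj1 (synaptojanin 1) had the smallest p, with a log2 fold change of −0.40 (adjusted p = 0.205), and Inpp5e was at −0.33 (0.331). In the list of other class I subunits, 0 of 3 passed, with Pik3r2 (p85β) at −0.04 and Pik3r3 (p55γ), a gene of about 1 CPM, at −0.30. Of the class II and III kinases 0 of 4 passed, with Pik3c2a at −0.52 and Pik3c3, the catalytic subunit of the class III kinase, at −0.18.

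Among adaptors and inhibitors of PI3K, 0 of 10 passed. Pik3ip1, a membrane protein that inhibits PI3K, was at 0.36 (adjusted p = 0.262) and Pik3ap1, the adaptor BCAP, at −0.52 (0.291). Cbl, an E3 ubiquitin ligase named after its values were seen, had the lowest value of all 72 genes, −1.35, with a wide 95% interval (−2.87 to 0.17). The list of kinases of Akt and related genes had 0 of 8 called, with the lowest list median (−0.39). In it, Prr5l, a component of mTORC2, was at −0.73 (adjusted p = 0.232). The phosphatases of Akt had 0 of 5 called, with Ppp2cb at 0.24 and Phlpp1 at −0.40.

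Downstream of Akt, 0 of 9 substrates passed, with Bad at 0.31 and Gsk3b at −0.40. The mTORC1 arm had 0 of 7 called, with Rps6kb1 (S6 kinase) at −0.44 (adjusted p = 0.217) and Eif4ebp1 (4E-BP1) at 0.32 (0.305). Of the effectors that bind phosphoinositides 0 of 9 passed, with Dapp1 at 0.33 (adjusted p = 0.252) and Vav1 at 0.17.

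Foxo factors are held out of the nucleus when Akt phosphorylates them, and 6 transcripts known to respond to them were listed. In AML KO against AML WT 0 of 6 passed, with Klf2 at 0.46 and Bcl2l11 at −0.23. Gadd45a, a stress-response gene, was the only one of the 72 called in the trend, with a log2 level 0.67 higher per Gab2 allele lost (standard error 0.15, adjusted p = 0.0449, against 2.11% of all genes called higher). It stood at 3.52, 6.89 and 6.61 CPM for AML WT mice, at 7.19 and 9.18 for AML HET mice and at 19.8, 9.83 and 13.3 for AML KO mice, rising from group to group without overlap. In AML KO against AML WT its log2 fold change was 1.34 (adjusted p = 0.0759). It passed there with DESeq2 (adjusted p = 0.00202), with the length offset (0.039) and without AML KO mouse 2 (0.0422). The trend call held in 1 of 8 fits with a mouse left out, that without AML KO mouse 2, and the adjusted p ran from 0.0261 to 0.184. It was also lost with the replicate number as a block (adjusted p = 0.147).

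**Figure D5:**
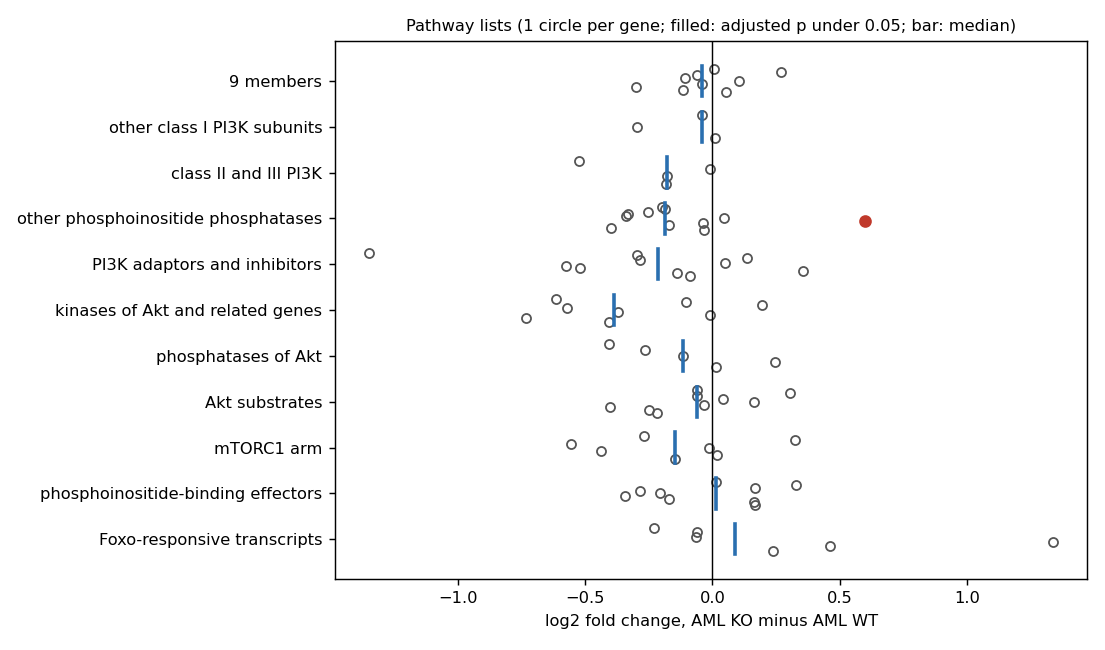
Log2 fold changes, AML KO minus AML WT, of the 9 genes and the 10 pathway lists, 1 circle per gene with the list median as a bar, filled where the adjusted p is under 0.05. Inppl1 at 0.60 is the only filled circle, and the medians run from −0.39 (kinases of Akt and related genes) to 0.09 (Foxo-responsive transcripts).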

How the data were processed

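The authors sequenced the whole BM of 8 mice and deposited raw counts per gene in 1 table, with 13305 genes and no gene under 106 counts over the 8 mice. The submitters' processing notes name Trimmomatic 0.36, STAR 2.5.2b and mm10, and the counter and its annotation are not given in the sources used here. Identifiers were matched to GENCODE M21 (13266 found, 39 not). Strand was not stated, so overlapping antisense reads cannot be told apart.

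The tests used edgeR 4.0.16 in R 4.3.3: TMM normalization, filterByExpr (which removed no gene), and a robust quasi-likelihood fit of all 8 mice with Gab2 genotype as the only term, or the number of Gab2 alleles for the trend. All 13305 genes entered the Benjamini-Hochberg adjustment, and an adjusted p under 0.05 was called. The F statistic gave the standard errors. CPM use TMM library sizes. Intervals are at 95%. The script was tested on simulated counts, which did not hold the length trend of the libraries. Single values were compared with exact permutation tests, and Spearman's rho came from scipy 1.17.1. P-values set a difference against the spread between these mice. In edgeR, that spread was estimated from all 8 mice with information from all genes.

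Named were the 9 genes, Gab2, pathway genes past the threshold in AML KO against AML WT or in the trend, the 2 further genes of each list with the smallest p, and the 3 genes most and the 3 least correlated with the gene of smallest p. Some genes that meet this rule are not reported here. The members and lists were chosen with earlier results of these data known. Alternatives were DESeq2 1.42.0, limma-voom (limma 3.58.1), other normalizations and filters, the replicate number as a block, AML WT and AML KO alone and each mouse left out. The offset for transcript length was added after seeing the data. Measurements other than RNA-seq were not analysed here.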

Additional observations from a re-analysis of the deposited data

How the results depend on the processing

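None of the 9 genes passed the threshold in any comparison under any alternative run. The number of all genes called changed more. DESeq2 called 730 in AML KO against AML WT, 59 in AML HET against AML WT, 77 in AML KO against AML HET and 865 in the trend, and limma-voom called 1 in AML HET against AML WT. The labels do not say whether equal replicate numbers mark paired mice. Deviations of same-numbered mice from their group means correlated at −0.509 to 0.289. Deviations within groups of 2 or 3 mice cancel each other, so they cannot settle this. With the replicate number as a block, 19 genes passed in AML KO against AML WT, 0 in AML HET against AML WT and 125 in the trend, and the adjusted p in AML KO against AML WT was 0.165 for Gab2 and 0.128 for Inppl1. Leaving out each mouse gave 40 to 370 genes in AML KO against AML WT (40 without AML WT mouse 2, 123 without AML KO mouse 3, 137 without AML KO mouse 1, 167 without AML WT mouse 1), 1 to 5 in AML HET against AML WT, 0 to 4 in AML KO against AML HET and 137 to 525 in the trend. In fits of AML WT and AML KO alone, the adjusted p of Gab2 was 0.0809 and that of Inppl1 0.0782. Small log2 fold changes changed sign. With the length offset these were 0.15 for Pik3ca, 0.078 for Pik3cd, 0.11 for Pik3r1, 0.060 for Inpp5d and −0.032 for Akt1 in AML KO against AML WT, 0.0068 for Inpp5d in AML HET against AML WT, and 0.041 for Pik3r5 and 0.054 for Inpp5d in AML KO against AML HET. In AML KO against AML HET, Inpp5d was at 0.022 with the block, and Pik3cg at −0.00176 with DESeq2, −0.017 with limma-voom, −0.00181 with DESeq2 size factors in edgeR and −0.00926 without the 10 genes with the most counts in the normalization. With a mouse left out, AML KO against AML WT ran from −0.20 to 0.032 for Pik3r1, −0.043 to 0.15 for Pik3r5, −0.057 to 0.086 for Akt1 and −0.11 to 0.0025 for Pik3r2. AML HET against AML WT ran from −0.054 to 0.13 for Pik3ca, −0.0044 to 0.070 for Pik3cd, −0.42 to 0.0052 for Pik3cg, −0.23 to 0.020 for Pik3r1, −0.026 to 0.17 for Pik3r5 and −0.18 to 0.054 for Inpp5d. AML KO against AML HET ran from −0.18 to 0.091 for Pik3cg, −0.065 to 0.12 for Pik3r1, −0.039 to 0.030 for Pik3r5 and −0.12 to 0.11 for Inpp5d. The log2 ratios ran from −0.018 to 0.56 for Pik3r5 to Pik3cg, −0.029 to 0.051 for Pik3r1 to Pik3ca, −0.39 to 0.045 for Pik3cg to Pik3cd and −0.077 to 0.042 for Inpp5d to Pik3cd. The cause of these changes was not tested. The lowest count of any of the 9 in a mouse was 787 (Pik3cb), and whether depth or the number of mice limits these comparisons more was not tested.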
